A study of Mus musculus with 8 samples.

Results

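Interferon-stimulated genes (ISGs) are the genes that cells switch on when interferons reach them, and they encode much of the cell-autonomous defence against viruses. A set of 50 mouse ISG symbols was chosen by name, with earlier results of these data known. A gene counted as a member where its symbol equalled a symbol of the deposited count table. In this way 49 of the 50 symbols were found among the 55471 genes of the table. Ifi203 shares its row with the symbol LOC102641031, so it was kept out of the counts and is given separately. Type I interferons bind the receptor chains IFNAR1 and IFNAR2, the kinases JAK1 and TYK2 then phosphorylate STAT proteins, and these join IRF9 in the complex ISGF3, which binds the interferon-stimulated response element (ISRE). Interferon gamma acts through another receptor, JAK1, JAK2 and STAT dimers that bind the gamma-activated site (GAS). Endothelial cells express both receptors and respond to interferons with antiviral and antigen presentation genes.

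The cells were SV-LECs, an SV40-immortalized mouse lymphatic endothelial line derived from mesenteric adventitial tissue, in medium with serum. The comparison asks what TGFβ1 changes in these cells: 4 libraries came from untreated cells and 4 from cells given TGFβ1 at 10 ng/ml over 72 h, and no interferon was among the stated treatments of either group. The study calls the samples of a group technical replicates of this single line, so errors and tests cover technical spread, and fewer expressing cells cannot be told apart from less RNA per cell. Reads were single-end, of 75 bases, from stranded poly(A) libraries.

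Of 4 lymphatic markers, Pdpn (322 to 359 CPM in untreated and 308 to 319 CPM in treated libraries) and Flt4 (20.0 to 22.9 CPM in untreated and 28.8 to 29.8 CPM in treated libraries) were expressed, whereas Prox1 and Lyve1 had at most 3 counts in any library. Among 7 pan-endothelial markers, Eng and Kdr were expressed, Tek lay below 1 CPM, and Pecam1, Cdh5, Emcn and Tie1 had at most 5 counts. The 8 leukocyte markers summed to 6.02 to 8.25 CPM in untreated and 16.2 to 18.6 CPM in treated libraries, nearly all of it from Cd68 and Csf1r, both of which rose (1.19 and 2.27 on the log2 scale). Ptprc, Adgre1, Tyrobp, Itgam and Cd3e had at most 3 counts in any library. The 4 fibroblast markers summed to 495 to 539 CPM in untreated and 200.2 to 226.5 CPM in treated libraries, with falls of Dcn and Pdgfra and a rise of Pdgfrb, and the 4 epithelial markers summed to 0.304 to 1.14 CPM in untreated and 2.36 to 4.11 CPM in treated libraries, with rises of Krt8 and Krt18 (1.99 and 2.47 on the log2 scale). The part of these marker changes in the ISG results was not tested. Total counts ranged from 18952504 to 26386941 per library, and 3 counts corresponded to 0.113 to 0.162 CPM, which covers counting error only. The ISGs were not even within the groups: nearly all of them lay below their group mean in untreated replicate 1 and in treated replicate 4, as detailed with the library deviations, and the counts of members called are given there without these libraries. CPM values are counts scaled to the TMM-normalized size of each library.

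Most ISGs were moderately higher after TGFβ1, and a few were lower. After removal of genes with low counts, 48 of the 49 members were tested. At a false discovery rate (FDR) under 0.05 in edgeR's likelihood ratio test, adjusted over all 13818 genes tested, 35 members rose, 4 fell and 9 did not pass. The response to TGFβ1 was broad in this experiment, and 75.6% of all genes tested passed in either direction. Higher calls made up 72.9% of the members tested against 37.6% of all genes, and lower calls made up 8.33% against 38% of all genes. The median log2 fold change of the members was 0.74, whereas that of all genes tested was -0.0064. The members together took 2753 to 3559 CPM in untreated and 5064 to 6052 CPM in treated libraries. A log2 fold change above 1 was reached by 9 members, or Zbp1, Ifit3b, Irgm1, Mx2, Ifit1, Lgals3bp, Sp100, Trim30a and Irf7, and no member fell by more than 1, while 10.9% and 6.56% of all genes did so. All treated libraries lay above all untreated libraries in 31 members and below them in 3, against 34.7% and 35.1% of all genes, so that the groups were apart in 34 of 48 members and in 69.8% of all genes. The counts by role below stand against these same shares of all genes, and each role holds few genes.

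**Figure D1:**
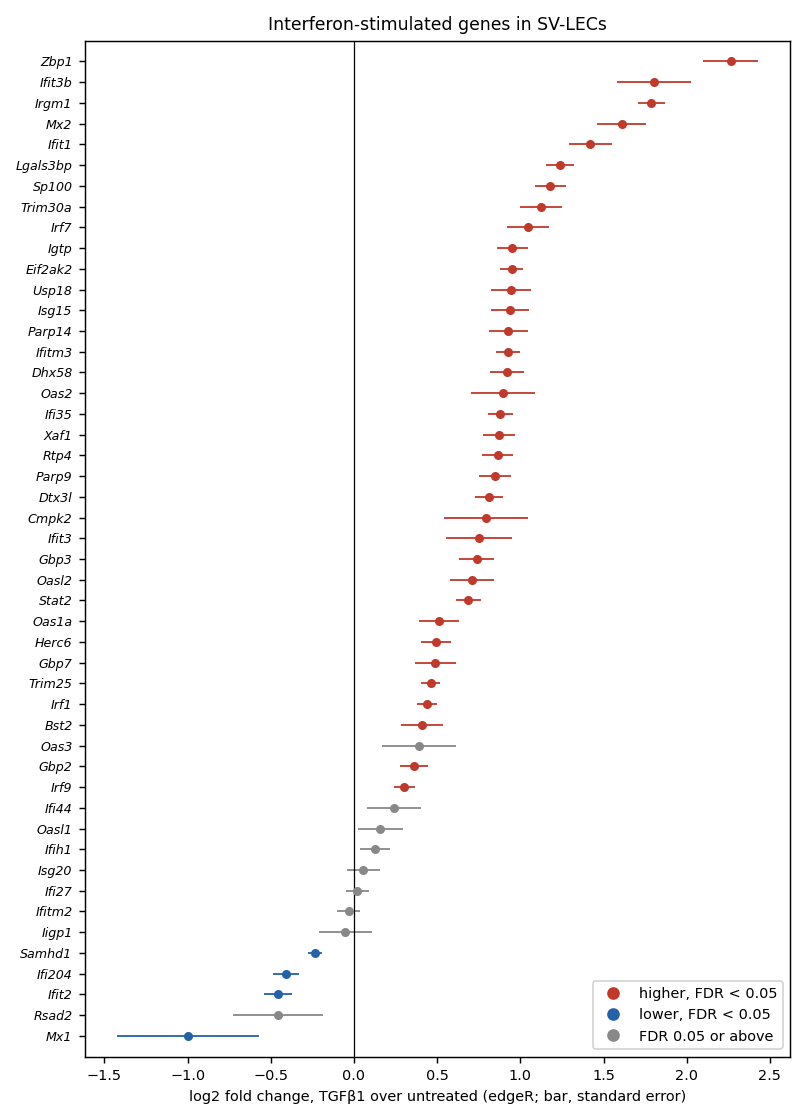
Log2 fold changes of the 48 members tested, TGFβ1-treated over untreated, sorted by size, with bars for the standard error of the edgeR fit. Red points rose and blue points fell at an FDR under 0.05, grey points did not pass, and Zbp1 has the highest value (2.27) and Mx1 the lowest (-0.998).

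Among signalling and transcription factors all 4 members rose, against 37.6% of all genes. Stat2, a subunit of ISGF3, measured 80.9, 96.3, 87.9 and 97.2 CPM in the untreated libraries and 147, 154, 156 and 127 CPM in the treated libraries (log2 fold change 0.69, standard error 0.0727, FDR = 1.55e-20). Irf9, the DNA-binding part of ISGF3, measured 82.7, 99.2, 101 and 99.8 CPM in the untreated libraries and 121, 124, 117 and 109.7 CPM in the treated libraries (log2 fold change 0.30, standard error 0.0647, FDR = 5.73e-06). In both genes the groups were apart, and the rise of Irf9 was the smallest among all members called higher. Irf7 (ENSMUSG00000025498, chromosome 7, 141262706 to 141266481), which amplifies the transcription of type I interferon genes, measured 30.5, 50.2, 49.1 and 44.0 CPM in the untreated libraries and 87.8, 88.2, 104 and 78.9 CPM in the treated libraries (log2 fold change 1.04, standard error 0.126, FDR = 6.05e-16). Every treated library stood well above the highest untreated library. Irf1, a factor induced by interferon gamma and by inflammatory signals, went from 46.7 ± 3.55 to 63.3 ± 2.02 CPM (SD, n = 4 per group) and also kept its groups apart (log2 fold change 0.44, standard error 0.0588, FDR = 2.36e-13).

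Sensors of foreign or misplaced nucleic acid and their regulators mostly rose, with 5 of the 7 tested higher and 1 lower. The largest change of any member was that of Zbp1 (ENSMUSG00000027514, chromosome 2, 173206612 to 173218923), a sensor of left-handed nucleic acid that can trigger necroptosis. It measured 5.20, 10.3, 10.1 and 8.62 CPM in the untreated libraries and 40.8, 41.4, 49.9 and 33.1 CPM in the treated libraries, a 4.81-fold rise (log2 fold change 2.27, standard error 0.165, FDR = 1.92e-39). The lowest treated library lay at more than 3 times the highest untreated library. Eif2ak2, which encodes the RNA-activated kinase PKR that halts translation, measured 72.7, 87.6, 87.9 and 92.6 CPM in the untreated libraries and 171, 167, 168 and 151 CPM in the treated libraries (log2 fold change 0.95, standard error 0.0677, FDR = 4.72e-43). Trim30a, a regulator of innate signalling, measured 33.0, 53.4, 54.8 and 51.2 CPM in the untreated libraries and 109, 105, 114 and 92.0 CPM in the treated libraries (log2 fold change 1.12, standard error 0.124, FDR = 1.05e-18), and 4.98% of its 75-base stretches, the length of a read, also occur in Trim30d. Both genes had clearly parted groups. Trim25, the ubiquitin ligase that acts on RIG-I, measured 88.7, 96.4, 93.8 and 104 CPM in the untreated libraries and 134, 132, 141 and 120.1 CPM in the treated libraries (log2 fold change 0.46, standard error 0.0597, FDR = 4.22e-14). Dhx58, which encodes the RIG-I-like protein LGP2, rose by 0.92 on the log2 scale, from 22.4 ± 3.79 to 42.4 ± 4.03 CPM. Ifih1, which encodes the RNA sensor MDA5, did not pass (44.0 to 58.3 CPM in untreated and 51.3 to 64.2 CPM in treated libraries, log2 fold change 0.13, FDR = 0.184). Its log2 fold change ranged from 0.038 without untreated replicate 1 (FDR = 0.641) to 0.19 without treated replicate 4, where it passed (FDR = 0.0436). Ifi204, a member of the DNA-binding interferon-inducible family on chromosome 1, fell from 73.1 ± 5.02 to 55.2 ± 6.42 CPM (log2 fold change -0.41, standard error 0.0777, FDR = 3.68e-07) with 13.2% of its stretches shared with Ifi211, Mndal and Ifi207. The row of its relative Ifi203 lay at 33.8 to 44.7 CPM in untreated and 32.1 to 42.5 CPM in treated libraries and did not pass (log2 fold change 0.046, FDR = 0.674).

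The IFIT genes, whose products bind foreign RNA and block its translation, lie side by side on chromosome 19 and moved in different directions. Ifit1 (ENSMUSG00000034459, chromosome 19, 34640871 to 34650009) measured 42.7, 55.8, 49.4 and 60.5 CPM in the untreated libraries and 132, 140.2, 179 and 107 CPM in the treated libraries (log2 fold change 1.42, standard error 0.131, FDR = 7.60e-26). Ifit2 (ENSMUSG00000045932, chromosome 19, 34550694 to 34576419) measured 111, 105, 118 and 143 CPM in the untreated libraries and 85.6, 85.6, 95.8 and 81.0 CPM in the treated libraries and fell (log2 fold change -0.46, standard error 0.0847, FDR = 1.65e-07). Every treated library was above every untreated library for Ifit1 and below for Ifit2. Ifit3b (ENSMUSG00000062488, chromosome 19, 34607970 to 34613401) measured 3.81, 6.91, 5.90 and 8.57 CPM in the untreated libraries and 20.2, 22.4, 30.5 and 14.9 CPM in the treated libraries (log2 fold change 1.80, standard error 0.221, FDR = 5.50e-15), and Ifit3 rose from 49.7 ± 13.7 to 83.7 ± 23.7 CPM with overlapping groups (log2 fold change 0.75, standard error 0.197, FDR = 2.56e-04). Ifit3 and Ifit3b are near-identical copies: 41.1% of the stretches of Ifit3 and 35.7% of those of Ifit3b occur in the other gene, so reads could have been divided or dropped between them and both values are uncertain. The 3 genes that rose each hold the ISRE core 2 times in their promoters, and neither window of Ifit2 holds these letters. The stretches below are from RefSeq on GRCm38.p6, read 5′ to 3′ on the strand of the gene and located by their distance to the RefSeq start, with the ISRE core (GAAA, any 2 bases, GAAA) or its reverse complement in capitals. They are shown because the direction differed within the cluster, and whether these letters bear on the direction was not tested. For Ifit2 the stretch at the same distance as that of Ifit1 is given, counted from the more upstream of its RefSeq starts.
Ifit1 (chr19:34640765-34640833, plus strand, 124 to 56 bases upstream): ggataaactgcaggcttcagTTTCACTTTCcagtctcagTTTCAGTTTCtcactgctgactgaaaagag
Ifit3 (chr19:34583353-34583436, plus strand, 176 to 93 bases upstream): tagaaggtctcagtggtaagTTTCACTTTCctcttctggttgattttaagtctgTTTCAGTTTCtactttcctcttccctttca
Ifit3b (chr19:34607749-34607832, plus strand, 208 to 125 bases upstream): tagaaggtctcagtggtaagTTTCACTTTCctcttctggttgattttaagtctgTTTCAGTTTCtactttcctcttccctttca
Ifit2 (chr19:34550570-34550638, plus strand, 124 to 56 bases upstream): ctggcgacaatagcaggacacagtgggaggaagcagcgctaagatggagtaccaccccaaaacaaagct
The 84 bases shown for Ifit3 and Ifit3b are the same letter for letter. An absent match says only that these letters are not in the 300 bases of each window.

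Oligoadenylate synthetases make the messenger that activates RNase L in infected cells. Of 5 members of this family 3 rose and 2 did not pass. Oasl2, a synthetase-like relative, measured 72.5, 111, 111 and 126 CPM in the untreated libraries and 175, 184, 187 and 140.0 CPM in the treated libraries (log2 fold change 0.71, standard error 0.133, FDR = 2.32e-07). Oas1a measured 21.7, 31.7, 34.5 and 34.2 CPM in the untreated libraries and 44.9, 45.7, 45.9 and 37.8 CPM in the treated libraries (log2 fold change 0.51, standard error 0.118, FDR = 2.96e-05), with 47.6% of its stretches shared with Oas1g, which makes its value uncertain. Oas2 measured 6.99, 13.8, 15.4 and 14.8 CPM in the untreated libraries and 27.5, 21.5, 26.6 and 19.5 CPM in the treated libraries (log2 fold change 0.90, standard error 0.190, FDR = 5.51e-06). The 3 genes kept their groups apart and had their lowest values of each group in untreated replicate 1 and treated replicate 4. Oas3, the weakest by level per length of the tested members in untreated cells, lay at 2.02 to 3.45 CPM in untreated and 2.60 to 5.17 CPM in treated libraries and did not pass (log2 fold change 0.39, FDR = 0.103), with values from 0.20 without treated replicate 3 (FDR = 0.413) to 0.54 without treated replicate 4, where it passed (FDR = 0.0148). Oasl1, which restrains the translation of Irf7, lay at 4.67 to 7.40 CPM in untreated and 6.04 to 7.18 CPM in treated libraries and did not pass (0.16, FDR = 0.271), with values from 0.065 without untreated replicate 1 (FDR = 0.656) to 0.28 without untreated replicate 4, where it passed (FDR = 0.0331).

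All 6 members of the ISG15 system and the interferon-induced ADP-ribosyltransferases rose, against 37.6% of all genes. In all 6 the treated libraries lay above the untreated libraries, against 34.7% of all genes. Isg15, the ubiquitin-like modifier, measured 53.7, 80.7, 82.0 and 79.8 CPM in the untreated libraries and 134, 142, 165 and 126 CPM in the treated libraries (log2 fold change 0.94, standard error 0.116, FDR = 3.46e-15). Usp18, which removes ISG15 and also restrains the type I receptor, measured 47.4, 71.3, 72.1 and 71.0 CPM in the untreated libraries and 123, 133, 144 and 104 CPM in the treated libraries (log2 fold change 0.94, standard error 0.122, FDR = 4.04e-14). In untreated replicate 1 both genes stood far below the other untreated libraries, which agreed closely with each other. Herc6, the mouse ligase for ISG15, rose by 0.49 on the log2 scale from 32.1 ± 3.44 to 45.1 ± 5.26 CPM, with 11.3% of its stretches shared with other genes. Parp14 rose by 0.93, and Parp9 and Dtx3l, whose proteins work as a complex, rose by 0.85 and 0.81 on the log2 scale. Parp9 and Dtx3l overlap on opposite strands of chromosome 16, where 6.63% and 6.72% of their stretches coincide, and the sources used here do not say whether strand was used in counting.

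The MX, nucleotide and RNA-acting effectors gave no common direction, with 2 of 6 higher, 2 lower and 2 not past the threshold. Mx2 (ENSMUSG00000023341, chromosome 16, 97535308 to 97560900), a dynamin-like GTPase of the antiviral MX family that GENCODE M21 annotates as a polymorphic pseudogene, measured 4.77, 5.67, 4.67 and 5.32 CPM in the untreated libraries and 15.7, 14.2, 20.3 and 12.4 CPM in the treated libraries (log2 fold change 1.61, standard error 0.149, FDR = 1.85e-26). Mx1, its neighbour on chromosome 16, measured 1.40, 1.13, 0.742 and 3.09 CPM in the untreated libraries and 0.974, 0.682, 1.18 and 0.349 CPM in the treated libraries (log2 fold change -0.998, standard error 0.425, FDR = 0.0258). The groups of Mx2 were apart, whereas those of Mx1 overlapped and its call rested on few counts, from 9 to 61 per library. Without untreated replicate 4, where Mx1 was highest, it no longer passed (log2 fold change -0.48, FDR = 0.188), and the same held without treated replicate 2 (FDR = 0.0657), without treated replicate 4 (FDR = 0.101) and with the replicate block (FDR = 0.112). Samhd1, which breaks down nucleotides needed for viral DNA synthesis, measured 219, 232, 223 and 243 CPM in the untreated libraries and 198, 192, 199.5 and 189 CPM in the treated libraries and fell (log2 fold change -0.23, standard error 0.0438, FDR = 1.85e-07) with little spread within the groups. Isg20, an RNA exonuclease, measured 13.1, 15.4, 12.7 and 12.7 CPM in the untreated libraries and 12.0, 14.4, 15.6 and 14.1 CPM in the treated libraries, and its groups overlapped (log2 fold change 0.057, FDR = 0.603). Cmpk2 and Rsad2 are neighbours on chromosome 12, and both encode enzymes that act on nucleotides, Rsad2 being known as viperin. Cmpk2 rose from 2.91 ± 0.865 to 5.07 ± 1.84 CPM (log2 fold change 0.80, standard error 0.252, FDR = 0.00250). Rsad2 had 8.04 to 18.1 CPM in untreated and 6.02 to 14.3 CPM in treated libraries and did not pass (log2 fold change -0.46, FDR = 0.113). Without treated replicate 3, which held its highest treated value, it was lower and passed (-0.82, FDR = 0.000542), and it also passed without untreated replicate 3 (-0.61, FDR = 0.0410). Without untreated replicate 4, which held its highest untreated value, the log2 fold change was -0.18 (FDR = 0.505).

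**Figure D2:**
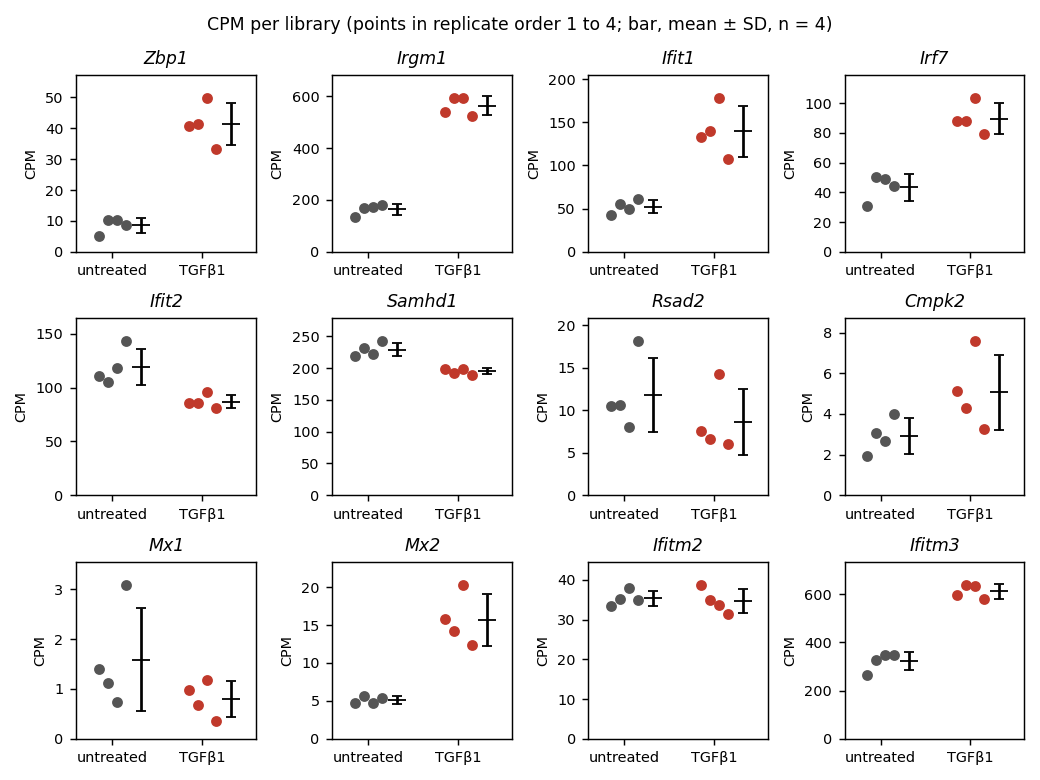
CPM of 12 members in each library, with points in replicate order for untreated (grey) and TGFβ1-treated (red) libraries and a bar for mean ± SD (n = 4 per group), each panel on its own axis from 0. Zbp1, Irgm1, Ifit1, Irf7, Mx2 and Ifitm3 show treated libraries above all untreated libraries, Ifit2 and Samhd1 show them below, and Rsad2, Cmpk2, Mx1 and Ifitm2 show overlapping groups.

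Of the 3 membrane restriction factors tested 2 rose, among them the member most abundant per length. Ifitm3, which blocks the fusion of viruses with endosomes, measured 266, 325, 349 and 347 CPM in the untreated libraries and 595, 639, 632 and 578 CPM in the treated libraries (log2 fold change 0.93, standard error 0.0734, FDR = 4.38e-35). Bst2, or tetherin, which holds budding viruses at the cell surface, measured 205, 269, 255 and 203 CPM in the untreated libraries and 260.0, 255, 381 and 342 CPM in the treated libraries (log2 fold change 0.41, standard error 0.125, FDR = 0.00168). The groups were far apart for Ifitm3 and overlapped for Bst2, whose 2 lower treated libraries lay within the range of the untreated libraries. Ifitm2 lay at 33.5 to 38.0 CPM in untreated and 31.5 to 38.8 CPM in treated libraries and did not pass (log2 fold change -0.032, FDR = 0.679). Of its stretches 42% also occur in other genes, among them Gm45717, Gm8865 and Gm11951. Ifitm1 had at most 8 counts in untreated and 5 in treated libraries and was the member too low to be tested.

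Interferon-inducible GTPases, which attack the vacuoles of intracellular parasites and bacteria, rose in 5 of 6 members. Irgm1 (ENSMUSG00000046879, chromosome 11, 48861968 to 48871683), a regulator of the immunity-related GTPases and of autophagy, measured 132, 167, 172 and 181 CPM in the untreated libraries and 539.7, 594, 595 and 526 CPM in the treated libraries, a 3.45-fold rise (log2 fold change 1.79, standard error 0.0805, FDR = 2.81e-102). Its lowest treated value was more than 2 times its highest untreated value. Gbp3, a guanylate-binding protein, measured 66.5, 105, 96.4 and 92.4 CPM in the untreated libraries and 149, 152, 165 and 135 CPM in the treated libraries (log2 fold change 0.74, standard error 0.107, FDR = 2.23e-11). Igtp, also called Irgm3, measured 25.9, 30.2, 32.3 and 36.6 CPM in the untreated libraries and 58.8, 62.8, 67.4 and 52.9 CPM in the treated libraries (log2 fold change 0.95, standard error 0.0951, FDR = 1.07e-22), and shares 7.80% of its stretches with Irgm2. The groups were apart in both. Gbp7, whose groups overlapped and which shares 11.3% of its stretches with Gm43802 and Gbp3, and Gbp2 rose by 0.49 and 0.36 on the log2 scale. Iigp1, an effector of the same family that is among the genes most responsive to interferon gamma, lay at 15.2 to 24.5 CPM in untreated and 14.8 to 25.3 CPM in treated libraries and did not pass (log2 fold change -0.052, FDR = 0.777).

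Of the 7 remaining members 5 rose. Lgals3bp, a secreted glycoprotein that binds galectins, measured 208, 282, 296 and 261 CPM in the untreated libraries and 611, 606, 667 and 587 CPM in the treated libraries (log2 fold change 1.24, standard error 0.0857, FDR = 4.02e-45). Sp100, a component of nuclear bodies that silence viral genomes, measured 52.8, 72.8, 74.7 and 71.8 CPM in the untreated libraries and 156, 162, 163 and 136 CPM in the treated libraries (log2 fold change 1.18, standard error 0.0935, FDR = 6.78e-35). In both genes the lowest treated library was far above the highest untreated library. Ifi35, Xaf1 and Rtp4 rose by 0.88, 0.87 and 0.86 on the log2 scale, with groups apart. Ifi27 measured 172, 167, 194 and 208 CPM in the untreated libraries and 189.9, 199, 173 and 189 CPM in the treated libraries, with overlapping groups (log2 fold change 0.020, FDR = 0.793). Ifi44 lay at 35.5 to 69.4 CPM in untreated and 59.5 to 81.1 CPM in treated libraries and did not pass either (0.24, FDR = 0.170).

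Members that neighbour each other in the genome did not always change by the same amount. All 17 pairs of tested members within 100000 bases of each other were taken by position, after their values had been seen, and the log2 ratio of the genes in each library was compared between groups with an exact two-sided permutation test, in which 0.0286 is the smallest p that 4 libraries against 4 can give. After Benjamini-Hochberg adjustment 11 pairs passed (adjusted p = 0.0442, exact permutation test), and in these 11 the ratios of the groups did not overlap. Several pairs share a gene, so they are not separate results. For single genes the groups were apart in 69.8% of all genes. The share over other gene pairs was not computed, so the count cannot be read as particular to these neighbours. The change of Ifit2 was lower than that of Ifit1 by 1.86, of Ifit3b by 2.27 and of Ifit3 by 1.20 on the log2 scale. Mx1 differed from Mx2 by -2.53, Rsad2 from Cmpk2 by -1.26 and Ifitm2 from Ifitm3 by -0.96. Gbp3 exceeded Gbp7 by 0.25 and Gbp2 by 0.39, Oasl2 exceeded Oasl1 by 0.56, and Ifit3 changed less than Ifit3b by 1.07 and less than Ifit1 by 0.66. Gbp3 and Gbp7 share part of their stretches, as do Ifit3 and Ifit3b, so the differences within these pairs are uncertain. With each library left out in turn these 11 differences kept their sign. No difference was found for Dtx3l and Parp9, at -0.044 with a range of -0.096 to -0.0087 across the sets with a library left out (p = 0.629, exact permutation test), nor for Parp14 with either of them, Gbp7 with Gbp2, Ifit3b with Ifit1 or Oas2 with Oas3 (p from 0.0571 to 0.2, exact permutation test), which does not show that their changes are equal.

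Libraries of the same group differed in the overall level of ISGs. In untreated replicate 1, 47 of the 48 members lay below the mean of the untreated libraries, with a median deviation of -0.29 on the log2 CPM scale, and Mx1 was the exception. In treated replicate 4, 45 of 48 members lay below the mean of the treated libraries, with a median of -0.19. Conversely, 45 members lay above their group mean in untreated replicate 4 (median 0.14) and 45 in treated replicate 3 (median 0.14). Over all 13818 genes tested, 49.8% lay below the group mean in untreated replicate 1 and 52% in treated replicate 4, with medians of 0.00019 and -0.0038. Deviations within a group sum to 0, so the libraries are not independent in this description. A list of 37 other interferon-induced genes, also chosen with earlier results of these data known, was distributed alike. Of these, 36 lay below the mean in untreated replicate 1, 37 in treated replicate 4, and 35 above the mean in treated replicate 3. Of 30 genes for interferon reception and induction, 20 and 21 lay below the mean in untreated replicate 1 and treated replicate 4. Untreated replicate 1 had 20323647 counts and treated replicate 4 had 26386941, the largest total of all libraries, and what set the ISG level of a library was not tested. Oas2 deviated most in untreated replicate 1 (-0.79), Mx1 in untreated replicate 4 (1.10) and treated replicate 4 (-0.90), and Rsad2 in treated replicate 3 (0.81). Without untreated replicate 1 and treated replicate 4, a choice made after the data were seen, 36 members were higher and 3 lower. The median log2 fold change of the members was then 0.73. Of all 13856 genes tested in that fit, 36.4% were higher and 36.5% lower, with a median of -0.0033.

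**Figure D3:**
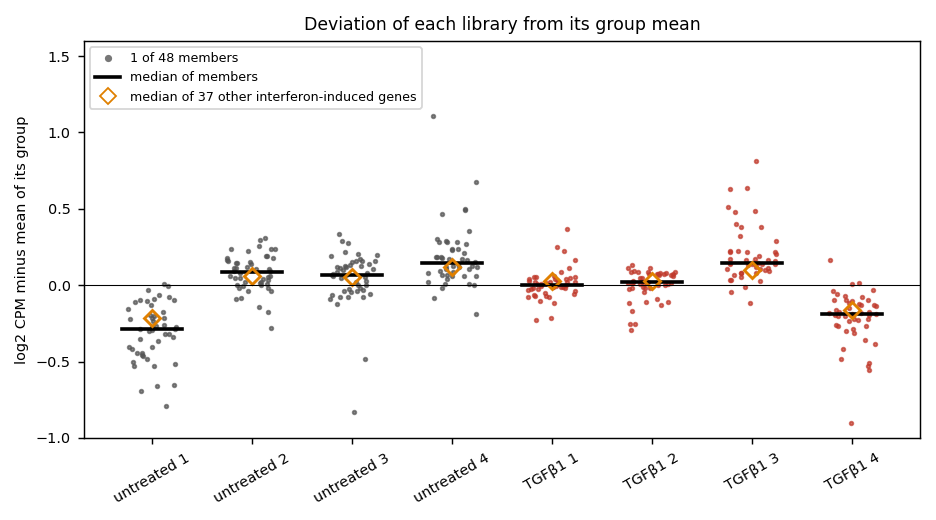
Log2 CPM of each of the 48 members in each library minus the mean of its group of 4 libraries, with a black line for the median of the members and an orange diamond for the median of 37 other interferon-induced genes. Nearly all points lie below 0 in untreated replicate 1 and treated replicate 4 and above 0 in untreated replicate 4 and treated replicate 3.

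By level per length, given as RPKM over the merged exons of each gene (mean ± SD, n = 4), the order of the tested members was headed by Ifitm3 at 475 ± 56.8 in untreated and 902 ± 43.3 in treated cells. Bst2 followed at 258 ± 37.9 and 343 ± 68.8. In untreated cells Ifi27 (126 ± 12.8) came next, then Isg15 (97.9 ± 18.0) and Lgals3bp (91.9 ± 13.5), and the ranges of these last 2 over the libraries overlapped. In treated cells Lgals3bp (217 ± 12.1) and Isg15 (188 ± 22.3), again with overlapping ranges, stood above Ifi27 (128 ± 7.56). Irgm1 moved from rank 10 to rank 6 among the 48 tested members and Zbp1 from rank 43 to rank 33, whereas Ifit2 moved from rank 7 to rank 23. The lowest levels of tested members in untreated cells were those of Cmpk2 (0.699 ± 0.208), Mx1 (0.420 ± 0.274) and Oas3 (0.407 ± 0.0950), whose ranges over the libraries overlapped.

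Promoter windows from 250 bases before to 50 bases after the start were held by the RefSeq table used here for 37 of the 49 members. The ISRE core, searched on both strands, was in a window of 19 of these 37 members (51.4%), against 3.99% of 27025 genes with a window. It was in 15 of 27 members that rose, in 4 of 7 that did not pass and in neither of the 2 that fell and had a window, Ifit2 and Samhd1. The GAS letters TTCNNNGAA, which read the same on both strands, were in 11 of 37 members (29.7%), against 9.55% of genes. They were in 8 of 27 members that rose, in 1 of 7 that did not pass and in both Ifit2 and Samhd1, which fell. The palindrome GTCTAGAC, bound by SMAD proteins downstream of TGFβ receptors, was in 0 of 37 members and in 0.248% of genes. Letters this rare would most often be missing from any 37 genes, so their absence says little, and no other SMAD site was searched. Stretches of 6 further members show these letters, with ISRE and GAS matches in capitals, for genes that rose (Isg15, Gbp3, Gbp7 and Igtp) and for genes that did not pass (Rsad2 and Ifitm2). A match is a description of the sequence and was not tested as a binding site.
Isg15 (chr4:156200855-156200916, minus strand, 98 to 37 bases upstream): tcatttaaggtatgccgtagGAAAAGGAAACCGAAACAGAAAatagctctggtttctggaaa
Gbp3 (chr3:142559979-142560034, plus strand, 65 to 10 bases upstream): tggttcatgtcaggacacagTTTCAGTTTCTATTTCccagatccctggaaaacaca
Gbp7 (chr3:142530210-142530312, plus strand, 126 to 24 bases upstream): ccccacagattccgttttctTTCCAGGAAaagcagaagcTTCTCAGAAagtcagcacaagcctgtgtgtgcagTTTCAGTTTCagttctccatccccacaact
Igtp (chr11:58199491-58199551, plus strand, 65 to 5 bases upstream): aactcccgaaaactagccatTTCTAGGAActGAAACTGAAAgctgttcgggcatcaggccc
Rsad2 (chr12:26456543-26456592, minus strand, 140 to 91 bases upstream): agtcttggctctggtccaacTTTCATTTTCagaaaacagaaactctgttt
Ifitm2 (chr7:140955978-140956027, minus strand, 66 to 17 bases upstream): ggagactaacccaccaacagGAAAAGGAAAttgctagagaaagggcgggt
In Isg15 and Gbp3 the capitals are overlapping ISRE matches, 3 and 2 in number. The first 2 runs of capitals in Gbp7 and the first in Igtp are GAS letters.

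Transcripts of the interferon genes examined were nearly absent, and other interferon genes and earlier times were not examined. The 11 ligand genes examined, Ifna1, Ifna2, Ifna4, Ifna5, Ifnab, Ifnb1, Ifne, Ifnk, Ifng, Ifnl2 and Ifnl3, had from 0 to 3 counts in each library and none could be tested. Ifnb1, the type I interferon of most cell types, had at most 2 counts in untreated and 3 in treated libraries, and a count of 0 allows up to 0.162 CPM in the least deeply sequenced library.

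Of 43 genes for interferon reception and induction, 30 were tested, and 13 rose and 10 fell, against 37.6% and 38% of all genes. Receptor chains were lower in 5 of 6 cases. Ifnar2 fell from 81.2 ± 3.87 to 50.2 ± 2.50 CPM (log2 fold change -0.69, standard error 0.0544, FDR = 1.63e-36) and Ifnar1 from 153 ± 4.47 to 123 ± 2.85 CPM (log2 fold change -0.31, standard error 0.0415, FDR = 1.31e-13). Ifngr2, Ifnlr1 and Il10rb also fell, with log2 fold changes of -0.14, -0.49 and -0.33. Ifngr1, which binds interferon gamma, was the receptor chain that rose, from 48.4 ± 1.47 to 67.3 ± 2.98 CPM (log2 fold change 0.47, standard error 0.0516, FDR = 1.45e-19). In all 6 the groups of libraries were apart, as they were in 69.8% of all genes. Among the receptor kinases Tyk2 rose from 33.8 ± 1.12 to 41.2 ± 1.17 CPM (log2 fold change 0.28, standard error 0.0523, FDR = 1.36e-07), Jak2 fell from 137 ± 3.44 to 117 ± 3.59 CPM (log2 fold change -0.23, standard error 0.0424, FDR = 1.82e-07), and Jak1 did not pass (log2 fold change 0.022, FDR = 0.641).

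All 7 adaptors and induction kinases rose, against 37.6% of all genes, in a role grouped with earlier results of these data known. Ikbke, a kinase that activates IRF3 and IRF7, led them, from 26.5 ± 3.33 to 99.2 ± 8.00 CPM (log2 fold change 1.91, standard error 0.0819, FDR = 5.36e-114). The other 6, Mavs, Tmem173, Myd88, Ticam1, Tbk1 and Traf3, had log2 fold changes from 0.17 to 0.68. Of the sensors, Tlr3 had the largest rise (log2 fold change 0.80, standard error 0.0883, FDR = 4.22e-19) and Tlr4 the largest fall (log2 fold change -0.77, standard error 0.0673, FDR = 2.00e-29), with Ddx58, which encodes RIG-I, also higher (0.73) and Cgas lower (-0.25). The factors Irf2, Irf3 and Irf5 did not pass. Among negative regulators Ptpn2 had the largest fall (log2 fold change -0.48, standard error 0.0519, FDR = 6.45e-20) and Ptpn11 was the gene that rose (0.26).

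**Figure D4:**
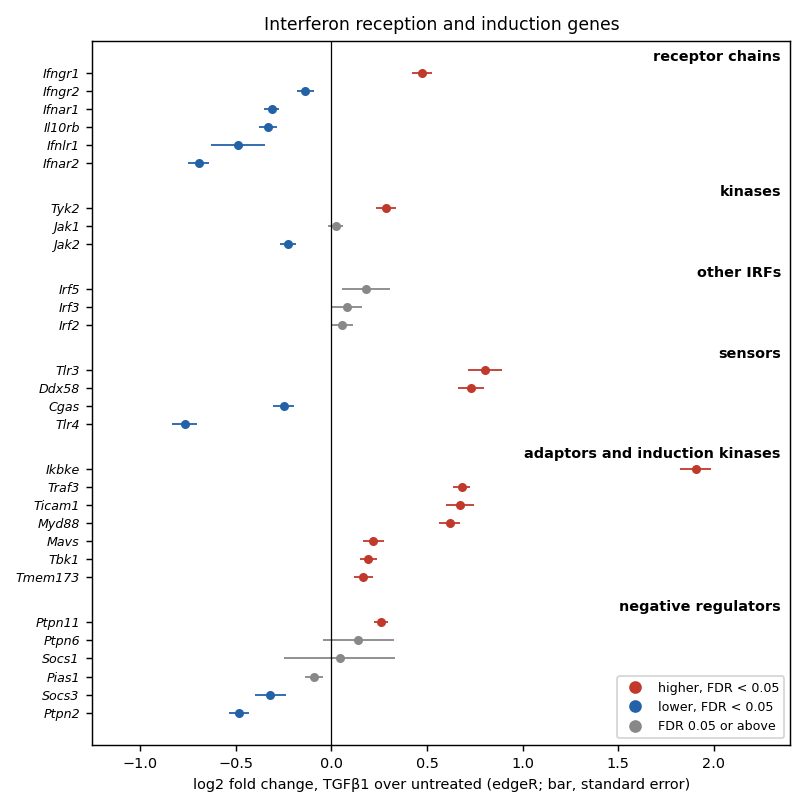
Log2 fold changes of tested genes for interferon reception and induction, TGFβ1-treated over untreated, grouped by role, with bars for the standard error of the edgeR fit. Red points rose and blue points fell at an FDR under 0.05, grey points did not pass, and Ikbke (1.91) lies apart from the other adaptors and kinases.

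A further list of 38 interferon-induced genes outside the members gave 25 higher and 4 lower genes among 37 tested. These were 67.6% and 10.8%, against 37.6% and 38% of all genes, and the median log2 fold change of the list was 0.54. The list was chosen with earlier results of these data known, so it is not an independent check. The largest rise was that of Nlrc5, the activator of MHC class I genes, from 10.8 ± 2.26 to 61.3 ± 4.13 CPM (log2 fold change 2.50, standard error 0.105, FDR = 7.13e-120). The largest fall was that of Gbp4, from 8.64 ± 1.56 to 4.99 ± 0.735 CPM (log2 fold change -0.80, standard error 0.149, FDR = 1.89e-07). Gbp5, Mndal and Casp4 also fell, with log2 fold changes of -0.49, -0.38 and -0.22.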

How the data were processed

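Libraries were made by the authors with the TruSeq Stranded mRNA kit and sequenced single-end at 75 bases. The submitters' processing notes name bcl2fastq 2.20.0.422, STAR 2.7.3a and featureCounts 1.5.1, with GRCm38 as the build, and the deposited values are raw counts of reads per gene in 8 libraries, 4 per group. The strand setting and annotation release of the counting are not given in the sources used here. Groups were taken from the sample labels. The members, gene lists and role groups were chosen with earlier results of these data known.

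Counts of 55471 genes were filtered with filterByExpr, scaled by TMM and compared with glmFit and glmLRT in edgeR 4.0.16 (R 4.3.3), the test the study names, with Benjamini-Hochberg FDRs over 13818 genes and a threshold of 0.05. Standard errors came from the fitted dispersions. Values in every library are given for the 2 tested members of each role with the highest mean CPM, the 2 with the largest absolute log2 fold change, and every member past the threshold that changed by over 1 on that scale. Other members are given by range or mean. From the further lists the ligands, receptor chains and kinases are named, and of each other role the gene that changed most in each direction. Names beyond this rule, such as Ddx58, Cgas, Gbp5, Mndal and Casp4, were chosen after their values were seen. Of the listed genes 2 are counted in their lists and not reported here by name. Positions, exon lengths and shared stretches of 75 bases came from GENCODE M21 on GRCm38, and promoters from RefSeq on GRCm38.p6. Depth was between 18952504 and 26386941 counts per library. The fit was tested on simulated data in which 200 genes were changed. False calls made up 11.5% of calls in the likelihood ratio test and 6.77% in the quasi-likelihood test, both above the nominal FDR of 0.05. In the data themselves 75.6% of genes passed, so these rates do not carry over to them. Library deviations used log2 CPM with a prior count of 2. Alternatives were the quasi-likelihood test, DESeq2 1.42.0, its size factors, total counts, 2 other filters, an FDR of 0.01, a prior count of 2, a replicate block and each library left out, and, added after the data were seen, untreated replicate 1 and treated replicate 4 left out together.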

Additional observations from a re-analysis of the deposited data

Results flagged for a closer look

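In 8 of 96 sets of 4 libraries, 48 members in 2 groups, the highest or lowest library stood apart by Dixon's ratio at the 95% level, where chance gives about 1 in 20. In 6 of the 8 the library was untreated replicate 1, which lay at 53.7 CPM for Isg15 against 79.8 to 82.0 in the others, 82.7 for Irf9 against 99.2 to 100.8, 47.4 for Usp18 against 71.0 to 72.1, 35.5 for Ifi44 against 64.9 to 69.4, 33.0 for Trim30a against 51.2 to 54.8 and 52.8 for Sp100 against 71.8 to 74.7. Untreated replicate 2 stood above the others for Isg20, with 15.4 CPM against 12.7 to 13.1. Treated replicate 4 stood below the others for Oas1a, with 37.8 CPM against 44.9 to 45.9. Genes that move together within a library are not independent, so the number of such sets is not a count of separate events.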

How the results depend on the processing

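Across 18 alternatives the number of members called higher was between 35 and 37 and of members called lower between 3 and 5, and the median log2 fold change of the members tested lay between 0.62 and 0.84, with the lowest value without untreated replicate 1 and the highest without treated replicate 4. With total counts in place of composition factors the median was 0.68. Higher calls over all genes ranged from 23% without the filter on low counts to 38.7% with 1 CPM in at least 4 libraries. Lower calls over all genes ranged from 20.8% without the filter on low counts to 42.7% with total counts. Of the 48 members 43 kept their side of the threshold under every alternative, 39 of them with the same direction. The other 4, Ifi27, Isg20, Ifitm2 and Iigp1, passed nowhere and their small log2 fold changes took both signs. No called member changed sign. The members that changed side were Mx1, Rsad2, Oasl1, Oas3 and Ifih1. Mx1 lost its call at an FDR of 0.01, with the replicate block and without untreated replicate 4, treated replicate 2 or treated replicate 4, and without untreated replicate 1 and treated replicate 4 together (FDR = 0.0926). Without the filter on low counts Ifitm1 was also tested and called lower. No pairing by replicate number was seen, and no source describes pairs. Deviations of same-numbered libraries from their group means correlated between -0.19 and -0.034, and those of differently numbered libraries between -0.23 and 0.25. Because deviations sum to 0 within a group, this comparison cannot exclude pairing. With the replicate block 35 members were higher and 3 lower, with a median of 0.75, against 36.7% higher and 36.7% lower of all genes. No member symbol occurred more than once, so summing repeated rows was not run. Depth limits Mx1, Cmpk2 and Oas3, and the ligand genes lie at the floor of 3 counts.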
